A study of Mus musculus with 34 samples.

Results

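The genes described here make prostaglandins and nitric oxide and take up or break down the arginine from which nitric oxide is made. They are Ptgs2, Ptges and Pla2g4a for prostaglandin synthesis, Nos2 for nitric oxide, and Arg1, Arg2 and Slc7a2 for arginine breakdown and uptake, a named list of 7 of the 21938 protein-coding genes of GENCODE (mouse, GRCm38, the coordinates of mm10). A peak was assigned to a gene when its midpoint fell in the gene body or within 20 kb on either side. By that rule the 30 peak lists of the series held 636 peaks near these genes, of 596383 in all. Merging every set of peaks that shared 1 bp or more, whatever their list, gave 66 loci near the members, of 93024 genome-wide. A locus is named below by its gene and by the distance of its centre from the first start of a protein-coding transcript, with negative values upstream.

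Binding of transcription factors was mapped by ChIP-seq in thioglycollate-elicited macrophages (TGEMs), cells that an irritant draws into the peritoneum, taken from male mice of 8 weeks 3 days after injection. The study's methods give this age and sex for C57Bl/6J and BALB/cJ mice, and the former strain is called C57Bl/6EiJ here. C57Bl/6EiJ cells were given vehicle (Veh, PBS) or 100 ng/mL Kdo2 lipid A (KLA), an agonist of the endotoxin receptor TLR4, for 1 h. They were probed in both states for ATF3, Jun, JunD, Fos, FosL2 (labelled Fra2), JunB, PU.1 and CEBPα, and in Veh for PPARγ. Balb/cJ cells were probed in both states for ATF3, Jun, JunD, Fos and JunB, and Veh cells labelled PPARgKO, on C57Bl6, for ATF3, Jun and JunD. The methods do not state age and sex for the PPARgKO mice. How PPARγ was removed is not given in the sources used here, and no PPARγ list from these PPARgKO cells was analysed here, so the loss of the target was not checked. Peak lists also do not show expression, so the macrophage identity was taken from the labels. Of the 34 samples 4 are inputs, which leaves 1 list per condition, no replicates and no test between conditions. The lists ran from 0 peaks (Balb/cJ Fos Veh) and 9 (Balb/cJ JunB Veh) to 41573 (C57Bl/6EiJ PU.1 Veh). A peak missing from a list did not pass the peak caller and the replicate filter, which does not show that the site was unbound.

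Cytosolic phospholipase A2 (Pla2g4a) frees arachidonic acid from membranes, cyclooxygenase-2 (Ptgs2) turns it into prostaglandin H2, and microsomal prostaglandin E synthase-1 (Ptges) makes prostaglandin E2 from that. Inducible nitric oxide synthase (Nos2) and the arginases (Arg1 in the cytosol, Arg2 in mitochondria) use the same arginine, which the transporter Slc7a2 brings into macrophages. Ptgs2, Ptges and Nos2 are known targets of endotoxin signalling, whereas Arg1 is known as a marker of alternatively activated macrophages. ATF3, Jun, JunD, Fos, FosL2 and JunB are AP-1 monomers that bind as dimers to the TRE (TGACTCA or TGAGTCA) or the CRE (TGACGTCA), PU.1 and CEBPα are lineage factors of macrophages, and PPARγ is a nuclear receptor.

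The sequences of the loci on which the results turn are shown first, as the plus strand of the GRCm38 reference, 5′ to 3′. Capitals mark exact matches on either strand to the TRE, the CRE, the PU.1 motif (AGGAAGT), the CEBP motif (TTGCNNAA) or the NF-κB motif. They are loci at a transcript start (Ptgs2, Nos2 and Ptges −26.6 kb), loci held by the most lists of their gene (Ptges −26.6 kb, Nos2 −4.2 kb, Arg1 −4.2 kb and Arg2 +1.5 kb), and loci whose peaks differed most between lists. For the Ptgs2 and Nos2 starts only bases upstream of the transcript are shown, and for Ptges −26.6 kb, which lies in a first exon, short stretches around each match.
Ptgs2 start (chr1:150099899-150100030): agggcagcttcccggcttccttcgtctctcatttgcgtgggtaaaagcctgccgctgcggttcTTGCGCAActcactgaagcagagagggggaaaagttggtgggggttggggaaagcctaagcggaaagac
Ptges −26.6 kb, CRE stretch (chr2:30929787-30929816): ctcatccgtgaTGACGTCAccacgtcacac
Ptges −26.6 kb, TRE stretch (chr2:30929872-30929900): tcctttctctaTGACTCAggccgggagac
Ptges −26.6 kb, CEBP stretch (chr2:30929916-30929945): gctgtccattcTTGCACAAtcgctgtcctc
Ptges −24.1 kb (chr2:30927347-30927546): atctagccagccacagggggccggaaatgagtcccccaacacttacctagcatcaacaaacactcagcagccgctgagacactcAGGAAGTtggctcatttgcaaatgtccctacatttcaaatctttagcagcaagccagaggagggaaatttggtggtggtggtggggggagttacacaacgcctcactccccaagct
Ptges −22.1 kb (chr2:30925268-30925467): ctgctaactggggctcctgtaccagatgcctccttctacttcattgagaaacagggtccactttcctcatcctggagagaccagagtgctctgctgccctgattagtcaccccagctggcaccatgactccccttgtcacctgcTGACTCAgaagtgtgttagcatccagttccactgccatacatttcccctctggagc
Nos2 −4.2 kb (chr11:78916494-78916693): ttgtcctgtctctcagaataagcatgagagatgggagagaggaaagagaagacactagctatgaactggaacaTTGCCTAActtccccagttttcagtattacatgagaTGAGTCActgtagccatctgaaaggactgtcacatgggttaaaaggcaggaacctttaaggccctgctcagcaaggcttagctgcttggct
Nos2 start (chr11:78920596-78920786): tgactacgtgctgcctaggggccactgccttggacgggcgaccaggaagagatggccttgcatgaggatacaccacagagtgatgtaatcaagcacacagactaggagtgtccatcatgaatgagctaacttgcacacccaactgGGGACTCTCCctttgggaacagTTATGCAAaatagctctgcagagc
Arg1 −4.2 kb (chr10:24931601-24931800): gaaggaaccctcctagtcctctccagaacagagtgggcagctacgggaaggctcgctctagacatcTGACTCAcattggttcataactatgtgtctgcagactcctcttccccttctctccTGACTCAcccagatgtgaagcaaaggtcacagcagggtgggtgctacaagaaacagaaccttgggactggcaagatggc
Arg1 −2.9 kb (chr10:24930276-24930475): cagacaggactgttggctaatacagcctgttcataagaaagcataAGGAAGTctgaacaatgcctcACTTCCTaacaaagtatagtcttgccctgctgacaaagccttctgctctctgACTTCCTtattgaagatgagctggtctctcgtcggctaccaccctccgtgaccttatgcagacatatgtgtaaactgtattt
Arg2 +1.5 kb (chr12:79132213-79132412): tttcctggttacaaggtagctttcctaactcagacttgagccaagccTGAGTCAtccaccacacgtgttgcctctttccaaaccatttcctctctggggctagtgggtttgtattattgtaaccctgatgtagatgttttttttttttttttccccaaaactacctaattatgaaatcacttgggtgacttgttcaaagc
Arg2 +37.8 kb (chr12:79168462-79168661): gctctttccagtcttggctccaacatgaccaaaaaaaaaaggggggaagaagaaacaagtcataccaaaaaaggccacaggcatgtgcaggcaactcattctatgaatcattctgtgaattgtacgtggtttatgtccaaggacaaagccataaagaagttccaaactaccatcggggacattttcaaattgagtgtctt

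The member windows covered 597 kb. The median locus had peaks in 6.5 lists, and 12 of the 66 loci had peaks in at least 20. By position, 37 loci lay inside a member gene, 18 were intergenic and 11 lay inside a neighbouring gene only. Pla2g4a had 170 peaks at 20 loci, Ptges 126 at 13, Arg2 101 at 11, Arg1 81 at 7, Nos2 75 at 4, Slc7a2 65 at 10 and Ptgs2 18 at 1. Pla2g4a also has the longest window (172 kb), and per 100 kb it had 99.0 peaks, against 157 for Ptges, 155 for Arg1 and 154 for Arg2. In the C57Bl/6EiJ ATF3 lists the members had 4.18 peaks per 100 kb in Veh, where the windows of all protein-coding genes had 1.31, and 5.86 under KLA against 2.05. All 7 members had a peak in both of these lists, as did 47.5% and 55.0% of all protein-coding genes. Some other lists held fewer members, such as C57Bl/6EiJ JunD Veh with 5, against 45.9%, and PPARgKO Jun Veh with 3, against 16.5%. C57Bl/6EiJ Fos Veh held 2, against 13.5%, and C57Bl/6EiJ JunB Veh 0, against 2.35%.

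Counts are not on one scale across lists, so each peak was ranked by its count within its own list. Its percentile is the share of that list with a lower count, which sets the median of every list at 50 and puts 10% of its peaks above percentile 90. Of the 636 member peaks, 97 (15.3%) were at percentile 90 or above, and 51 of these were at Ptges. The share at percentile 90 or above was 40.5% of the Ptges peaks, 14.9% for Arg2, 12.3% for Arg1, 12% for Nos2, 5.56% for Ptgs2, 5.29% for Pla2g4a and 3.08% for Slc7a2. Ptges thus had the most high-ranking peaks of the 7 genes and Slc7a2 the smallest share. Brackets after a percentile give the percentiles of the 95% Poisson limits of the count, which cover counting error only.

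**Figure D1:**
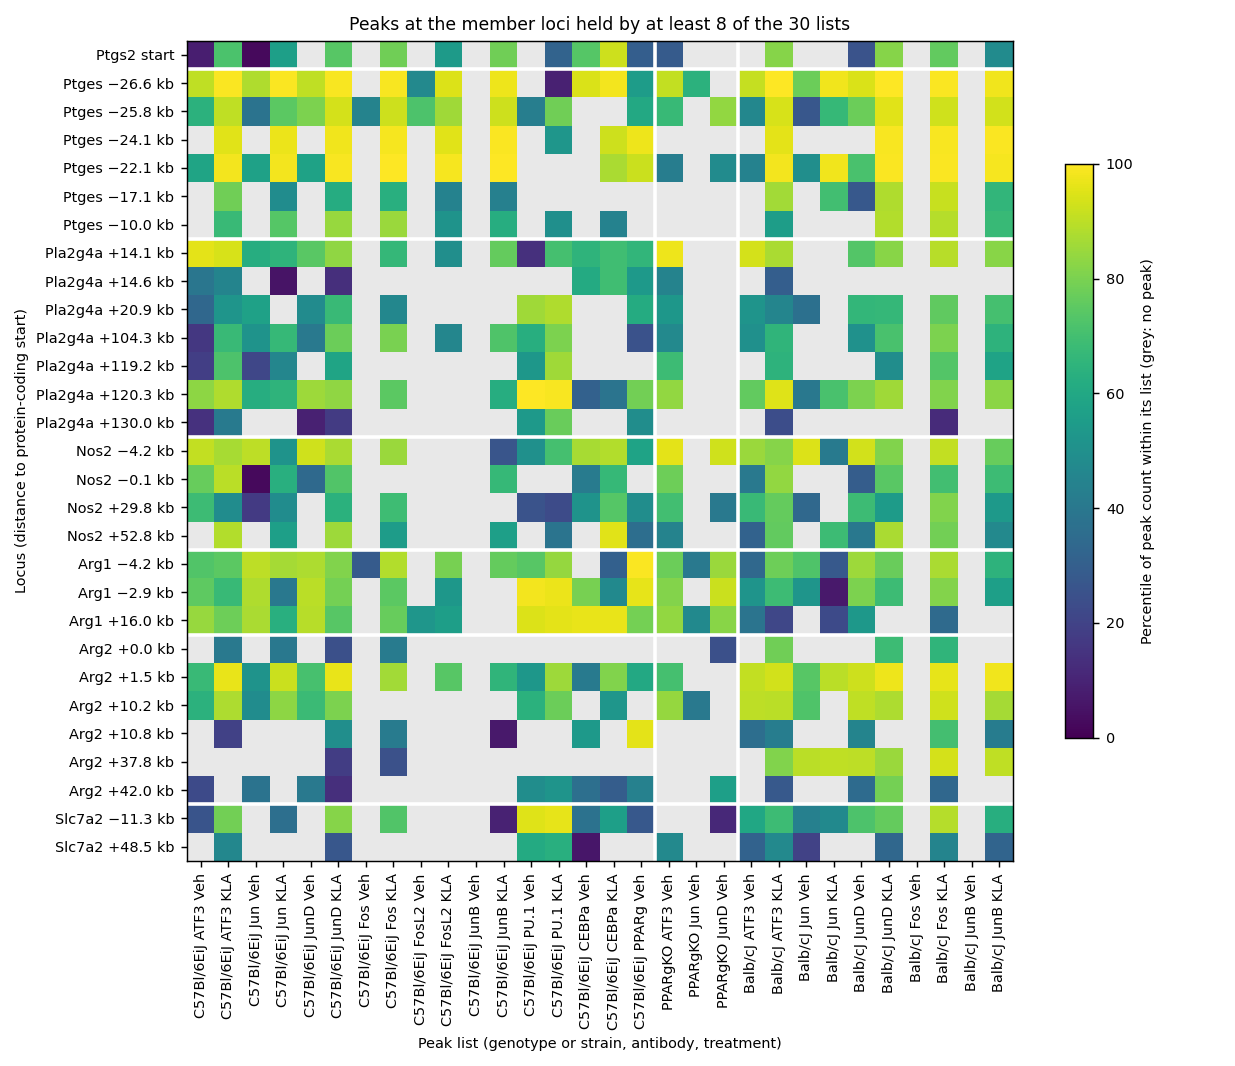
Percentile of the peak count within its list (colour from 0 to 100, grey where the list has no peak) for the member loci held by at least 8 of the 30 lists (rows), in every list (columns). In the KLA lists of all 6 C57Bl/6EiJ AP-1 monomers, Ptges −26.6, −24.1 and −22.1 kb are at 94.6 or above, and Arg2 +37.8 kb is grey in every C57Bl/6EiJ Veh list.

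Ptgs2, the inducible cyclooxygenase, had 1 locus in its window, at its start (chr1:150099802-150100167), held by 18 lists. ATF3 had 31 counts there in C57Bl/6EiJ Veh, at percentile 8.41 [0 to 34.3], and 112 under KLA, at 71.8 [62.3 to 79.4]. Jun was at 2.49 [0 to 40.2] in Veh and 56.3 [23.2 to 79.3] under KLA. JunD (percentile 73.9), Fos (78.3), FosL2 (54.6) and JunB (78.4) had a peak in the KLA list only. In C57Bl/6EiJ, ATF3 and Jun were thus near the bottom of the Veh lists and all 6 monomers above the middle of the KLA lists, and the ranges of ATF3 did not meet. CEBPα was already at 73.7 [62.9 to 81.8] in Veh and was at 92.6 [88.2 to 95.7] under KLA, the highest percentile in the window. In Balb/cJ, ATF3 had a peak under KLA only (82.0), JunD was at 25.7 in Veh and 81.9 under KLA, and Jun had no peak in either state. Fos (75.8) and JunB (48.4, just below the middle of its list) had a peak under KLA in Balb/cJ. The sequence shown above has a CEBP match and no TRE or CRE. With windows of 5 kb on each side Ptgs2 kept 18 peaks in 18 lists, and with 50 kb it had 65 peaks in 26 lists. Its count was thus the same in the narrower window and larger in the wider one.

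Ptges, the terminal synthase of prostaglandin E2, had most of its high-ranking peaks 22 to 27 kb upstream of its protein-coding start. GENCODE starts a noncoding Ptges transcript there (30929863 on chromosome 2), and RefSeq places the first exon of a predicted mRNA there. No locus lay at the protein-coding start (30903297). With the gene body taken from protein-coding transcripts alone, a choice made after seeing the data, 28 of the 126 peaks and 14 of the 27 lists stayed in the window.

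At the long transcript's start, Ptges −26.6 kb (chr2:30929653-30930109), ATF3 was at 90.3 [85.3 to 94.0] in C57Bl/6EiJ Veh (137 counts) and at 99.4 [98.6 to 99.7] under KLA (341 counts). Jun was at 88.1 [73.2 to 95.5] and 99.3 [97.4 to 99.9], the latter rank 119 of 17480. JunD was at 90.4 and 98.9. This locus thus ranked high in Veh and higher under KLA, and for all 3 monomers the ranges of the 2 states did not meet. Balb/cJ had the same order, with ATF3 at 91.1 and 99.6, Jun at 77.7 and 98.0, and JunD at 94.5 and 99.8. CEBPα was at 94.5 in Veh and 98.2 under KLA, while PU.1 had no Veh peak and was at 9.25 under KLA. Of the sequences shown above, it is the one with both a CRE and a TRE. The neighbouring start locus, −25.8 kb, was lower, with ATF3 at 64.4 in C57Bl/6EiJ Veh and 90.4 under KLA, and the locus at +6.0 kb had a single AP-1 peak.

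Ptges −24.1 kb (chr2:30927214-30927701), in an intron of the long transcript, had an AP-1 peak in 0 of the 14 Veh lists and in 10 of the 11 KLA lists. The Veh lists include very short ones, such as Balb/cJ Fos (0 peaks) and JunB (9), and those of PPARgKO, which have no KLA counterpart. In C57Bl/6EiJ under KLA, ATF3 was at 95.4, Jun at 97.1, JunD at 98.0, Fos at 98.7, FosL2 at 95.3 and JunB at 99.6. In Balb/cJ, ATF3 was at 96.1, JunD at 98.9, Fos at 98.9 and JunB at 99.4, and Jun had no peak. A locus that no Veh list held for AP-1 was thus in the top 5% of each of these 10 KLA lists. PPARγ was at 97.3 [96.2 to 98.1] there in Veh, and CEBPα (92.2) and PU.1 (52.6) had a peak under KLA only. The PPARγ peak (chr2:30927468-30927701) lies toward one end of this merged locus, so it and the AP-1 peaks may mark different sites. The central 200 bp of the locus (chr2:30927347-30927546) hold only part of the PPARγ peak, and have a PU.1 match and no exact TRE or CRE.

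Ptges −22.1 kb (chr2:30925147-30925699) was near the middle of the Veh lists and at the top of the KLA lists. In C57Bl/6EiJ, ATF3 was at 58.5 [41.5 to 71.3] in Veh and 98.1 [96.7 to 99.1] under KLA, Jun at 57.2 and 98.2, and JunD at 57.5 and 99.1. Fos (99.7), FosL2 (98.5) and JunB (99.7) had their highest C57Bl/6EiJ member peaks there. PPARγ was at 92.0 in Veh, and the sequence has a TRE. Closer to the protein-coding start, −17.1 kb had AP-1 peaks in all 11 KLA lists, at percentiles from 43.6 to 91.4, and in 1 Veh list, at 27.6. The locus at −10.0 kb had them in 10 KLA lists, at 51.2 to 88.8, and in no Veh list.

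**Figure D2:**
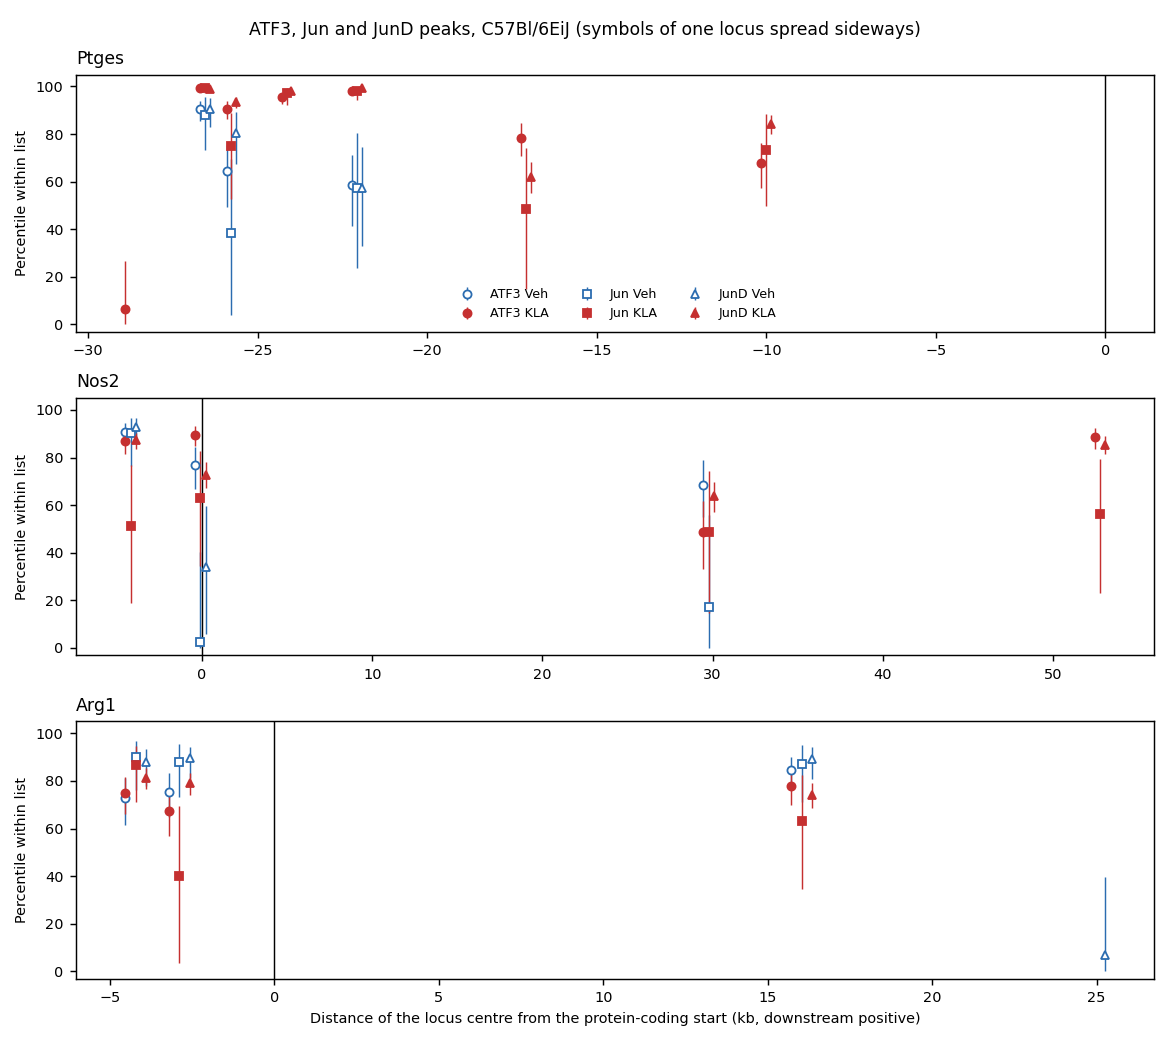
Percentile within its list (vertical axis) of each ATF3, Jun and JunD peak in C57Bl/6EiJ against the distance of its locus from the protein-coding start in kb (horizontal axis), open blue for Veh and filled red for KLA, with bars for the percentiles of the 95% Poisson limits of the count. At Ptges each KLA symbol lies above the Veh symbol of the same monomer and locus. At Arg1 −2.9 kb, a locus chosen for its Jun difference, Jun is at 88.1 in Veh and 39.9 under KLA. At Arg1 −4.2 kb ATF3 is at 72.7 and 74.9.

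Pla2g4a, the phospholipase that supplies arachidonic acid, had its peaks spread along the gene and few at its start. The loci at −0.4 and +0.3 kb were held by 2 and 5 lists, with AP-1 in 2 of these. The locus with the most lists (22), +120.3 kb (chr1:149840861-149841611), lies in an intron near the 3′ end of the gene. It merges 34 peaks and overlaps the rRNA gene n-R5s219, and the highest peak of each list was used. Values of different lists may thus come from different sites in this locus. PU.1 was at 99.9 there in Veh and 99.2 under KLA, the highest PU.1 percentiles at any member. ATF3 was at 82.9 and 88.0 in C57Bl/6EiJ and JunD at 85.2 and 83.4, with ranges that overlapped between Veh and KLA. In Balb/cJ, ATF3 was at 75.8 [62.9 to 85.6] in Veh and 95.1 [92.2 to 97.2] under KLA, ranges that did not meet, and JunD at 80.2 and 85.9, with ranges that overlapped. At +14.1 kb, a locus chosen after its values were seen, ATF3 was at 95.8 [93.2 to 97.7] in C57Bl/6EiJ Veh, 93.5 [88.1 to 96.7] in Balb/cJ Veh and 97.6 [95.5 to 98.9] in PPARgKO. JunD at the same locus was at 74.2 [58.2 to 85.5] in C57Bl/6EiJ and 73.3 [60.9 to 83.1] in Balb/cJ and had no peak in PPARgKO, so ATF3 ranked above JunD in the 2 kinds of cells where both had a peak. The highest Veh-only locus was at Pla2g4a for ATF3, JunD and PU.1 in C57Bl/6EiJ (+5.6 kb, at 35.0, 16.9 and 29.4) and for Jun (+20.9 kb, at 57.2).

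Nos2, the inducible nitric oxide synthase, had 4 loci. At −4.2 kb (chr11:78916443-78916753), held by 23 lists, AP-1 ranked high in Veh, with ATF3 at 90.7, Jun at 90.2 and JunD at 92.6 in C57Bl/6EiJ and at 84.9, 94.7 and 93.3 in Balb/cJ. Jun had 51 counts in C57Bl/6EiJ Veh, at 90.2 [76.4 to 96.6], and 31 under KLA, at 51.2 [19.1 to 76.7]. In Balb/cJ it had 71 counts in Veh, at 94.7 [87.4 to 98.4], and 32 under KLA, at 40.7 [11.4 to 66.5]. The Jun percentile was thus lower under KLA in both strains, with ranges that did not meet in Balb/cJ and that just met in C57Bl/6EiJ. ATF3 and JunD under KLA were at 86.8 and 87.2 in C57Bl/6EiJ and at 81.6 and 81.1 in Balb/cJ, smaller differences from Veh than for Jun. AP-1 peaks under KLA ran from 26.2 to 87.2 in C57Bl/6EiJ. In Balb/cJ Fos was highest under KLA, at 91.0, and the Fos Veh list was empty. CEBPα was at 86.9 in Veh and 88.5 under KLA, and the sequence has a TRE and a CEBP match.

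The Nos2 start (chr11:78920530-78920877) had the opposite order to that of Jun at −4.2 kb. ATF3 was at 76.7 [66.9 to 84.4] in C57Bl/6EiJ Veh and 89.5 [84.9 to 93.2] under KLA, Jun at 2.49 and 63.0, and JunD at 34.1 [5.76 to 59.6] and 72.8 [67.3 to 78.0]. In Balb/cJ, ATF3 was at 40.3 and 83.7 and JunD at 29.5 and 74.3, and Jun had no peak. Percentiles at the start were thus higher under KLA in both strains. Neither PU.1 nor PPARγ had a peak there, and the sequence has an NF-κB match and a CEBP match near its downstream end. Beyond the 3′ end, +52.8 kb (chr11:78973388-78973832) lies in an intron of Lgals9, which encodes galectin-9. In C57Bl/6EiJ it had no AP-1 or CEBPα peak in Veh, and under KLA had CEBPα at 95.5, ATF3 at 88.6 and JunD at 85.5. In Veh it had ATF3 at 31.4 and JunD at 40.2 in Balb/cJ, and ATF3 at 44.7 in PPARgKO.

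Arg1, the cytosolic arginase, had 3 widely held loci, at −4.2 kb (chr10:24931531-24931845, 25 lists), −2.9 kb (chr10:24930154-24930562, 23 lists) and +16.0 kb (chr10:24911104-24911614, 22 lists), the last in an intron of Med23, which encodes a Mediator subunit. Of these, −2.9 kb was chosen for description after its values were seen, as the Arg1 locus where Jun fell most from Veh to KLA in C57Bl/6EiJ. Jun in C57Bl/6EiJ Veh was at 90.2, 88.1 and 87.3 at these loci, and JunD at 87.8, 89.6 and 89.3. With Nos2 −4.2 kb and Ptges −26.6 kb, they were the 5 highest Jun loci of the members in that list. PPARγ was at 99.2, 96.3 and 79.1, and PU.1 in Veh at 73.9, 98.2 and 94.7. PPARγ was thus highest at −4.2 kb, whose sequence has 2 TRE matches, and PU.1 at −2.9 kb, whose sequence has 3 PU.1 matches. CEBPα was highest at +16.0 kb, at 96.6 in Veh and 96.8 under KLA.

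Under KLA, Jun in C57Bl/6EiJ was at 86.5 [71.2 to 94.8], 39.9 [3.46 to 69.6] and 63.0 [34.5 to 82.6] at the same 3 loci. At −2.9 kb this lay below the Veh range of 88.1 [73.2 to 95.5], and at the others the ranges overlapped. The −2.9 kb locus was picked for this Jun difference, so its standing out from the others follows from the choice. In Balb/cJ, Jun was at 72.3 [48.0 to 87.4] in Veh and 28.1 [0.504 to 56.6] under KLA at −4.2 kb, and at 52.0 [21.6 to 77.1] and 6.68 [0 to 37.2] at −2.9 kb, lower under KLA with ranges that overlapped. ATF3 did not have this order throughout. At −4.2 kb it was at 72.7 [61.6 to 81.4] in Veh and 74.9 [66.1 to 81.8] under KLA in C57Bl/6EiJ, and at 33.8 [8.71 to 57.6] and 78.0 [68.8 to 85.1] in Balb/cJ, higher under KLA with ranges that did not meet in Balb/cJ. Fos at −4.2 kb was at 28.6 in Veh and 88.7 under KLA in C57Bl/6EiJ, and at 87.2 under KLA in Balb/cJ. All 6 monomers had a peak at −4.2 kb under KLA in C57Bl/6EiJ, at 74.9 or above. At −2.9 kb ATF3 was at 75.3 and 67.3 in C57Bl/6EiJ and 51.8 and 68.4 in Balb/cJ, with ranges that overlapped in both. CEBPα at −2.9 kb was at 79.5 [70.4 to 86.7] in Veh and 47.4 [30.2 to 62.2] under KLA, lower and with ranges that did not meet. The Arg1 start locus (−0.7 kb) had PU.1 peaks in both states and 1 AP-1 peak, of ATF3 in PPARgKO, at 28.6.

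Arg2, the mitochondrial arginase, was most widely held at +1.5 kb (chr12:79132141-79132534, 23 lists), in an intron. ATF3 was at 67.9 [54.0 to 78.3] in C57Bl/6EiJ Veh and 96.9 [94.8 to 98.2] under KLA, Jun at 51.6 and 92.0, and JunD at 70.9 and 96.5. In Balb/cJ, ATF3 was already at 90.9 [84.2 to 95.3] in Veh and was at 93.0 [89.1 to 95.8] under KLA, Jun at 73.9 and 89.6, and JunD at 92.5 and 97.3. The locus thus ranked high in both strains under KLA, and for ATF3 in Veh the Balb/cJ range lay above that of C57Bl/6EiJ. The sequence has a TRE. At the Arg2 start AP-1 had a peak in 7 KLA lists and 1 Veh list, and at +10.8 kb PPARγ was at 96.0 with no AP-1 peak in any C57Bl/6EiJ Veh list.

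Slc7a2, the arginine transporter, was most widely held at −11.3 kb (chr8:40850984-40851335, 20 lists), where PU.1 was at 94.9 in Veh and 96.3 under KLA. ATF3 was at 26.1 [3.82 to 48.0] there in C57Bl/6EiJ Veh and 78.7 [71.1 to 84.9] under KLA, and Jun (36.4) and JunD (81.7) had a peak under KLA only. In Balb/cJ all 3 had a Veh peak, ATF3 at 59.6, Jun at 43.4 and JunD at 71.9. Under KLA in Balb/cJ they were at 68.4, 47.7 and 76.5, so the differences between states were smaller there than for ATF3 in C57Bl/6EiJ. The start loci at −0.6 and −0.2 kb had AP-1 in 4 and 5 KLA lists and no Veh list. In the C57Bl/6EiJ Veh lists the ATF3 peak at −11.3 kb was thus the only AP-1 peak of Slc7a2.

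Of the 56 member loci with an AP-1 peak in some list, 33 had one in both Veh and KLA lists, against 51.7% of the 70226 AP-1 loci genome-wide, 17 in KLA lists only, against 28.8%, and 6 in Veh lists only, against 19.5%. Of the 17, 7 were at Ptges, 5 at Slc7a2, 3 at Pla2g4a and 2 at Arg2. Within single monomers, ATF3 in C57Bl/6EiJ had 13 of 37 member loci in KLA only, against 43.3% of loci genome-wide, and 3 in Veh only, against 10.1%. For Jun these were 8 of 28, against 34.9%, and 4, against 27.0%. For JunD they were 18 of 36, against 45.0%, and 2, against 11.7%. The KLA-only loci were thus about as frequent at the members as genome-wide, and for these monomers in C57Bl/6EiJ none was at Arg1.

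In Balb/cJ, ATF3 had 18 of 37 member loci in KLA only, against 51.4%, and 0 in Veh only, against 8.82%. Jun had 6 of 20, against 34.6%, and 4, against 32.3%. JunD had 14 of 40, against 35.4%, and 3, against 23.9%. These shares of KLA-only loci were also near the background. Among member loci with a peak in both states in C57Bl/6EiJ, the percentile was higher under KLA at 16 of 21 for ATF3, against 64.2% of all loci in both lists, at 12 of 16 for Jun, against 44.1%, and at 10 of 16 for JunD, against 56.3%. In Balb/cJ it was higher at 14 of 19 for ATF3, against 69.7%, at 7 of 10 for Jun, against 49.7%, and at 16 of 23 for JunD, against 48.0%. A percentile depends on the length of its list, so these counts are read only against the genome-wide shares. Every Ptges locus among them was higher under KLA in both strains. The 3 Arg1 loci were lower under KLA for Jun and JunD in C57Bl/6EiJ, while ATF3 at Arg1 −4.2 kb was higher in both strains.

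Fos, FosL2 and JunB had short Veh lists (1804, 5329 and 463 peaks in C57Bl/6EiJ). Fos had 22 of 24 member loci in KLA only, against 92.7%, FosL2 10 of 13, against 59.8%, and JunB 18 of 18, against 96.6%. None had a member locus in Veh only, where the background was 2.78%, 20.2% and 1.57%. PU.1 had 9 of 41 in KLA only, against 19.0%, of which 4 were at Ptges, and 4 in Veh only, against 21.0%. CEBPα had 8 of 26 in KLA only, against 30.9%, of which 3 were at Ptges, and 3 in Veh only, against 20.7%. PU.1 thus had 28 of 41 member loci in both lists, against 60.0% genome-wide, and CEBPα 15 of 26, against 48.4%. These shares were not far from the background.

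**Figure D3:**
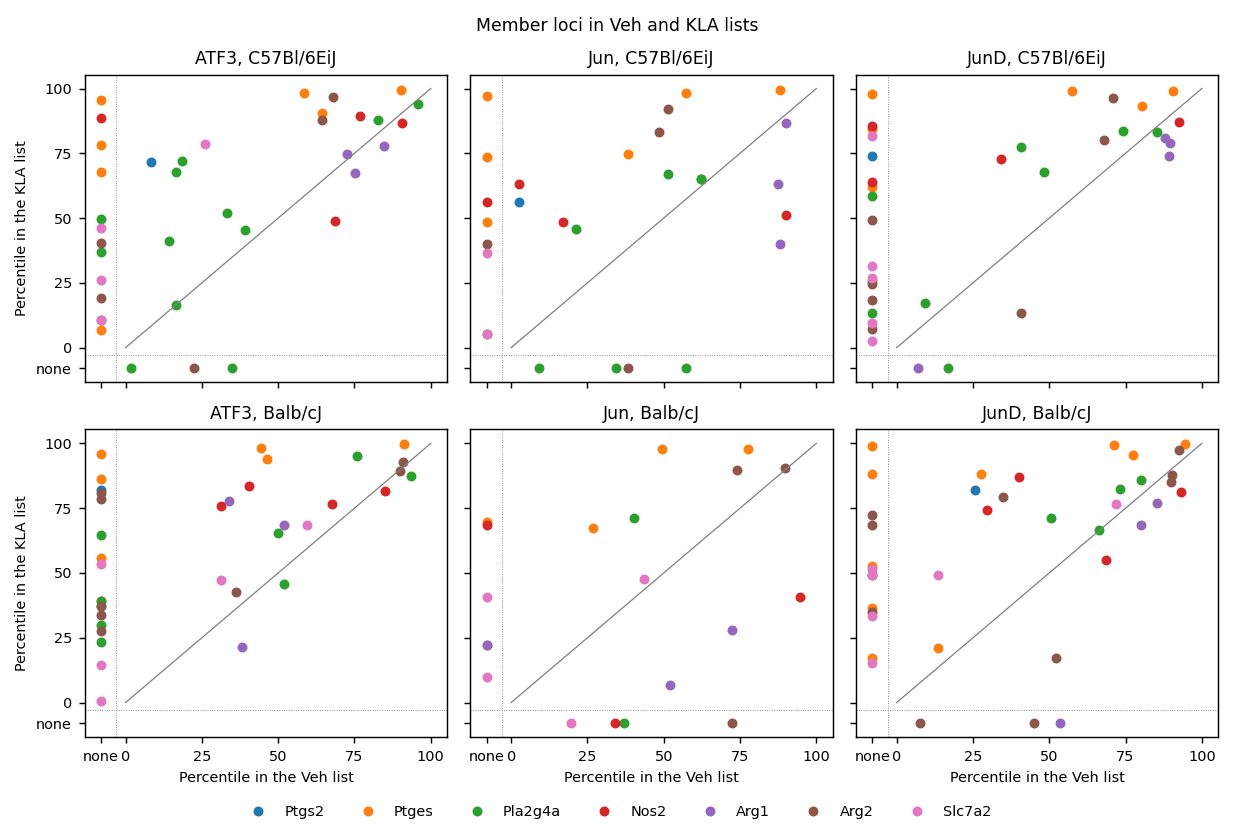
Percentile of each member locus in the Veh list (horizontal axis) and in the KLA list (vertical axis) of ATF3, Jun and JunD in C57Bl/6EiJ (top) and Balb/cJ (bottom), coloured by gene, with a locus that has no peak set at "none". Ptges −24.1 kb is among the points without a Veh peak, at 98.0 for JunD in C57Bl/6EiJ, and Nos2 −4.2 kb lies below the diagonal for Jun in both strains.

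Among member loci with a peak in Balb/cJ only, Arg2 +37.8 kb (chr12:79168424-79168705) ranked highest in 5 of the 8 pairs of lists. It lies in an intron of the neighbouring gene Vti1b, which encodes a vesicle fusion protein, and over an exon of the pseudogene Gm17194. In Balb/cJ Veh, Jun was at 89.7 [77.1 to 96.3] (59 counts) and JunD at 89.9 [83.5 to 94.4] (104 counts). Under KLA in Balb/cJ, ATF3 was at 80.9, Jun at 90.6, JunD at 85.0 [77.2 to 91.0], Fos at 93.7 [90.8 to 96.0] and JunB at 90.3. In C57Bl/6EiJ it had no Veh peak, and under KLA had JunD at 18.3 [8.76 to 28.3] and Fos at 24.9 [2.07 to 48.2]. The locus was thus near percentile 90 in most Balb/cJ lists that held it, and low or without a peak in C57Bl/6EiJ. The reference sequence shown above has no match to the motifs searched, and Balb/cJ bases were not used here. Reads of a pseudogene can also come from its parent copy, so these values are uncertain, and the part of such reads was not tested.

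Arg1 +16.0 kb ranked lower in Balb/cJ. In Veh, ATF3 was at 84.5 [77.4 to 90.1] in C57Bl/6EiJ and 38.3 [14.1 to 60.3] in Balb/cJ, JunD at 89.3 [80.7 to 94.2] and 53.5 [34.0 to 69.2], and Jun at 87.3 with no Balb/cJ peak. Under KLA, ATF3 was at 77.8 and 21.3, Jun at 63.0 and 22.3, Fos at 76.7 and 34.6, and JunD at 74.2 with no Balb/cJ peak. For ATF3 and JunD in Veh the ranges of the strains did not meet. The other highest strain-specific loci were Ptges −24.1 kb for Jun under KLA (97.1 in C57Bl/6EiJ only) and Arg2 +10.2 kb for Fos under KLA (92.9 in Balb/cJ only). Lower-ranking ones were Ptges −24.8 kb for JunD under KLA in Balb/cJ (52.7), Pla2g4a +14.6 kb for ATF3 in C57Bl/6EiJ Veh (39.3), Pla2g4a +120.8 kb for ATF3 in C57Bl/6EiJ under KLA (37.1) and Arg2 +10.8 kb for ATF3 in Balb/cJ Veh (36.1).

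Counted over loci in Veh, ATF3 had 8 of 27 member loci in C57Bl/6EiJ only, against 30.1% genome-wide, and 3 in Balb/cJ only, against 17.3%. Jun had 9 of 23, against 42.0%, and 3, against 17.7%. JunD had 3 of 29, against 13.9%, and 11, against 41.1%. These shares were near the background, in which the longer list had more loci of its own. Under KLA, ATF3 had 4 of 41 in C57Bl/6EiJ only, against 18.8%, and 7 in Balb/cJ only, against 18.8%. Jun had 12 of 28, against 44.9%, and 4, against 15.3%. JunD had 5 of 42, against 19.1%, and 8, against 24.5%. Fos under KLA had 0 of 45 in C57Bl/6EiJ only, against 5.80%, and 21 in Balb/cJ only, against 43.1%. JunB had 1 of 32, against 11.1%, and 14, against 45.0%. The Balb/cJ lists of Fos and JunB were longer than those of C57Bl/6EiJ (40459 against 24365 peaks and 21667 against 13375).

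**Figure D4:**
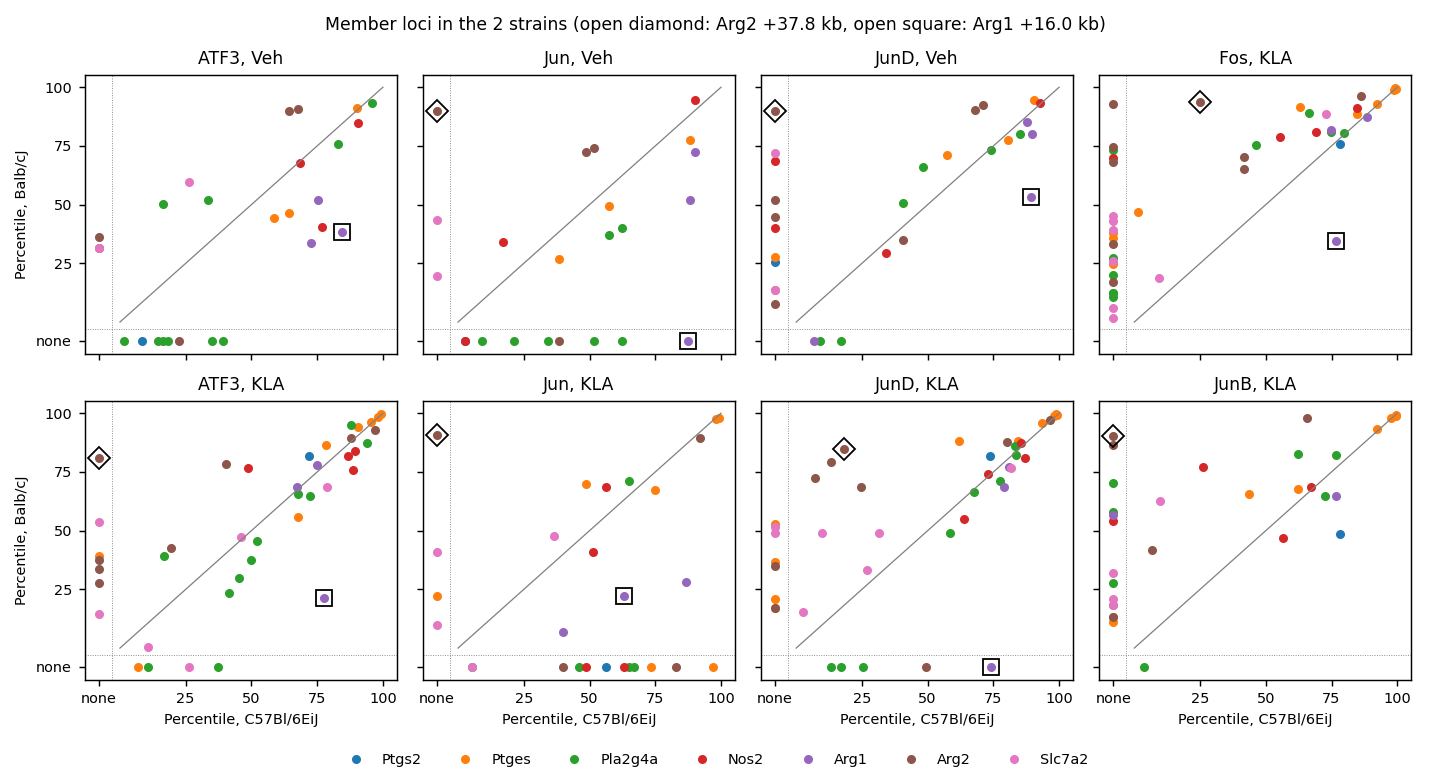
Percentile of each member locus in C57Bl/6EiJ (horizontal axis) and Balb/cJ (vertical axis) for 8 pairs of lists, coloured by gene, with a locus that has no peak set at "none". The open diamond marks Arg2 +37.8 kb, at 80.9 or above in Balb/cJ in every panel where it appears, and the open square marks Arg1 +16.0 kb, below the diagonal in every panel where it appears.

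PPARγ, a nuclear receptor that binds lipids, had 33 member peaks in wild-type Veh cells, of which 6 were at percentile 90 or above. They were Arg1 −4.2 kb (99.2), Ptges −24.1 kb (97.3), Arg1 −2.9 kb (96.3), Arg2 +10.8 kb (96.0), Pla2g4a +3.6 kb (92.2) and Ptges −22.1 kb (92.0). In cells labelled PPARgKO the Jun list was short (4290 peaks, against 15548 in wild type). Of 20 member loci, 16 had a Jun peak in wild type only, against 73.7% genome-wide, and 0 in PPARgKO only, against 5.38%. The member share was thus close to that of the whole lists. With equal numbers of the strongest peaks from each list, 3 of 6 member loci had a peak in both, against 35.9% genome-wide, and with the whole lists 4 of 20, against 20.9%. Loci with a Jun peak in both were Ptges −26.6 kb (88.1 in wild type and 64.2 in PPARgKO), Arg1 −4.2 kb (90.2 and 40.5), Arg1 +16.0 kb (87.3 and 47.6) and Arg2 +10.2 kb (48.5 and 40.5). Their PPARgKO counts were low (17 to 21), with wide ranges such as 40.5 [0 to 85.1] at Arg1 −4.2 kb. The highest Jun locus with no PPARgKO peak was Nos2 −4.2 kb (90.2), where PPARγ was at 58.0.

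ATF3 had 5 of 27 member loci in wild type only, against 14.3%, and 3 in PPARgKO only, against 30.7%, and at 17 of the 19 loci in both its percentile was higher in PPARgKO, against 73.1% genome-wide. The ATF3 lists had 28318 peaks in PPARgKO and 23160 in wild type, and such ranks depend on list length. JunD had 9 of 24 in wild type only, against 31.4%, and 6 in PPARgKO only, against 31.1%. At Arg1 −4.2 kb ATF3 was at 72.7 [61.6 to 81.4] in wild type and 77.5 [64.4 to 86.5] in PPARgKO, and JunD at 87.8 [78.1 to 93.5] and 84.8 [75.8 to 91.1]. At Arg1 −2.9 kb ATF3 was at 75.3 and 81.3, and JunD at 89.6 and 92.1. These Arg1 loci, high for PPARγ in wild type, thus ranked high for ATF3 and JunD in both genotypes. The highest JunD locus with no PPARgKO peak was Ptges −26.6 kb (90.4), where ATF3 was at 90.3 and 90.8. The highest PPARgKO-only loci were Slc7a2 +48.5 kb for ATF3 (47.0) and Nos2 +29.8 kb for JunD (40.3).

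Wild-type member loci were also split by a PPARγ peak. With one, 15 of 20 ATF3 loci, 3 of 17 Jun loci and 9 of 16 JunD loci had a PPARgKO peak of the same monomer, where 85.5%, 28.7% and 61.7% did genome-wide. Without one, 4 of 4, 1 of 3 and 0 of 2 did, where 69.2%, 8.61% and 36.8% did genome-wide. The member loci without a PPARγ peak were too few to compare.

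**Figure D5:**
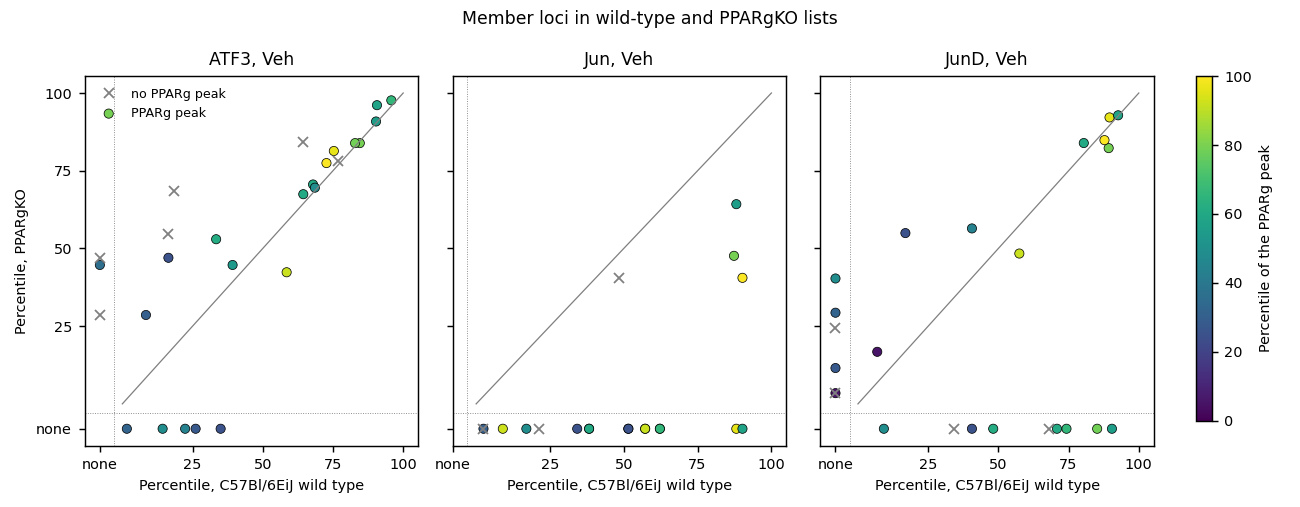
Percentile of each member locus in wild-type (horizontal axis) and PPARgKO (vertical axis) Veh lists of ATF3, Jun and JunD, with colour for the percentile of the PPARγ peak in wild type, crosses for loci without one, and a locus that has no peak set at "none". For Jun, 16 loci lie on the line without a PPARgKO peak, in lists of 4290 and 15548 peaks for PPARgKO and wild type. The lists differ in length, so the side of the diagonal on which shared loci lie is not read.

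Exact motifs were sought on both strands of the central 200 bp of the 56 member AP-1 loci and of 70132 AP-1 loci of the whole series. The TRE was in 12 member loci (21.4%, against 24.0% of all AP-1 loci) and the CRE in 2 (3.57% against 1.37%). The PU.1 motif was in 14 (25.0% against 19.0%) and the CEBP motif in 15 (26.8% against 14.9%). NF-κB was matched in 3 (5.36% against 6.94%), ISRE (GAAANNGAAA) in 1 (1.79% against 3.79%), STAT6 (TTCNNNNGAA) in 3 (5.36% against 5.47%) and the PPAR direct repeat, with up to 2 mismatches, in 1 (1.79% against 3.41%). Most member AP-1 loci thus had neither a TRE nor a CRE in this window. Of the 17 member loci held by at least 14 AP-1 lists 6 had a TRE (35.3%), against 42.9% of the 10811 such loci genome-wide, and of the other 39 loci 6 did (15.4%), against 20.6%.

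Other genes of the same pathways were described from a list of 40 genes of prostanoid, leukotriene, nitric oxide, arginine and polyamine metabolism. In C57Bl/6EiJ, ATF3 had a peak near 27 of the 40 in Veh (67.5%, against 47.5% of all protein-coding genes) and near 30 under KLA (75.0% against 55.0%). Jun had one near 25 (62.5% against 39.4%) and 23 (57.5% against 38.0%), and JunD near 28 (70.0% against 45.9%) and 27 (67.5% against 52.0%). Thus about as many of these genes had a peak in Veh as under KLA. Tbxas1, thromboxane synthase, had peaks in 28 lists and the most peaks (441), and Gch1, which starts the synthesis of the cofactor of nitric oxide synthase, had peaks in 26. Ass1, which makes argininosuccinate from citrulline, Ddah1 and the prostaglandin transporter Slco2a1 had a peak in no list. These genes were picked from the 40 after their values were seen.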

How the data were processed

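The members, windows, motifs and gene lists were chosen with earlier results of these data known. ChIP-seq peaks of TGEMs were analysed as deposited, 1 list per condition. Per the labels and the study's methods, the authors used Bowtie2 for alignment, against mm10 for C57Bl/6EiJ and a custom genome for Balb/cJ whose coordinates were shifted to mm10, made peak calls over input in HOMER (200 bp, false discovery rate setting 0.9) and kept replicated peaks (IDR 2.0.3, threshold 0.05). Each deposited list gives a read count per peak and an IDR score. How the authors combined replicates or scaled the count is not given in the sources used here, and median counts were 277 for JunD KLA and 259 for PU.1 Veh in C57Bl/6EiJ, against 18 to 76 in the other lists. Counts summed to between 203 and 13809143 per list, so values were compared as percentiles within lists, ties at their mean rank, with exact Poisson limits that are nominal. The Balb/cJ Fos Veh list was empty.

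Loci were merged at 1 bp of overlap, and the highest count per list and locus was used. Named loci are those within 1 kb of an annotated start, the locus of each member in the most lists, and the highest-ranking locus present in only 1 list of each comparison, and any other was chosen after its values were seen or is part of a count. Coordinates on 21 chromosomes fitted the GRCm38 reference, with 0 peaks past a chromosome end. Python 3.11.15, pandas 2.3.3, numpy 2.4.6, scipy 1.17.1 and matplotlib 3.10.9 were used, and the counting was tested on simulated data. Alternatives were other windows, overlaps and ranks, equal list lengths and shorter motif windows. There were no replicates, so nothing was left out in turn and no p-value is given.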

Additional observations from a re-analysis of the deposited data

Results flagged for a closer look

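At 2 Arg2 loci a monomer had a peak in one treatment only, and in opposite treatments in the 2 strains. At Arg2 +10.8 kb JunD had a peak under KLA only in C57Bl/6EiJ (percentile 49.3) and in Veh only in Balb/cJ (44.9). At Arg2 +42.0 kb, near the start of Vti1b, ATF3 had a peak under KLA only in Balb/cJ (27.8) and in Veh only in C57Bl/6EiJ (22.4). All 4 peaks were below the median of their list, and the differences between strains were not tested, since each condition had 1 list.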

How the results depend on the processing

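Of 68 alternative values, 58 stayed within the 95% interval of the main value or, for a count, within 1.5 times it, and 10 moved. With equal numbers of the strongest peaks in both lists, the share of member loci in both was 0% for Fos in Veh and KLA (8.33% with whole lists), 71.0% for Fos and 70.8% for JunB between strains under KLA (53.3% and 53.1%), and 50.0% for Jun between wild type and PPARgKO (3 of 6 loci, against 20.0%, 4 of 20). Ranked by IDR score, the median member percentile was 70.4 for AP-1 in C57Bl/6EiJ Veh (52.6 by count), 67.7 for PU.1 (52.9) and 67.3 for PPARγ (49.1). For AP-1 in C57Bl/6EiJ under KLA it was 66.1 (67.6 by count), so in this strain the lower median in Veh was seen by count only. In Balb/cJ, AP-1 was at 64.3 in Veh and 68.5 under KLA by IDR score (52.8 and 67.9 by count). Percentiles of single loci are given by count only. In the central 100 bp, NF-κB was in 1.79% of member AP-1 loci, and ISRE and the PPAR direct repeat in 0%. The cause of these moves was not tested, except that a shorter window holds fewer motif matches. Windows of 5 and 50 kb gave 548 and 827 member peaks against 636, and by gene 37 for Slc7a2 and 66 for Arg2 with 5 kb, and 65 for Ptgs2 and 135 for Nos2 with 50 kb. Windows from protein-coding transcripts, chosen after seeing the data, gave 538, with Ptges at 28 against 126. No paired analysis was possible because each condition had 1 list and no result comes from a test. Depth limits the lists with low counts, whose ranges were wide.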
